A study of Caenorhabditis elegans with 34 samples.

Results

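The predicted long-lived animals given by 4 different ways of sorting adult Caenorhabditis elegans were compared by their RNA. The 17 libraries came from animals predicted to be long-lived, out of 34 libraries in the whole series, and each of the other 17 came from the predicted short-lived animals of the same sort. High lin-4p::GFP gave 6 of the 17 libraries, high mir-243p::GFP gave 4, low mir-240/786p::GFP gave 4 and low autofluorescence gave 3. The members were taken from the sample labels, with no measured value used. The question was how far animals called long-lived by different biomarkers resemble each other.

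All animals carried spe-9(hc88), a temperature-sensitive mutation that leaves self-sperm unable to fertilise. They were fed Escherichia coli, grown at 25 °C and sorted at day 5 in a microfluidic device, in which the brightest or the dimmest animals of each population were kept. The lin-4p::GFP animals carried zaIs1, an integrated reporter seen mainly in the posterior intestine. The mir-243p::GFP reporter came from the strain VT1474 and is seen along the intestine, and the mir-240/786p::GFP reporter came from VL370 and is seen in the spermatheca, the pouch where oocytes meet sperm. Animals sorted by autofluorescence, the glow of gut and uterus without any dye, carried no reporter. Every library is a pool of many animals, each biomarker was 1 strain, and each sort was of animals of 1 strain. No label gives the campaign or date of a sort. Strain, biomarker and campaign therefore cannot be told apart in any comparison between the 4 groups. No label says how far sorts of 1 strain were separate cultures, so p-values measure the spread between sorts only.

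MicroRNAs are short RNAs that pair with messenger RNAs and lower their output. In this worm lin-4 was the founding member of the class and sets the order of larval cell fates by repressing lin-14 and lin-28, and it also acts on adult lifespan. The mir-240/786 cluster is needed for the regular timing of the defecation rhythm, and mir-243 can act as an Argonaute-bound trigger of small interfering RNAs. In each reporter strain GFP reports how active the promoter is, not how much microRNA is present.

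Library totals in the 4 groups ranged from 17891388 to 26144058 counts, so that 3 counts, taken as the floor of detection, correspond to 0.115 to 0.168 CPM, the usual per-library scaling of counts. All levels are given as CPM after normalisation by the trimmed mean of M values. A gene is described as called when its Benjamini-Hochberg adjusted p over the 14245 genes tested was under 0.0001 in the edgeR quasi-likelihood F-test. Fold changes are log2 values ± their standard error (SE).

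The gfp transcript was counted first, since it checks the labels. The mir-243p::GFP high libraries lay above all the others, with 2921, 2368, 2935 and 2018 CPM. The lin-4p::GFP high libraries ranged from 489 to 1833 CPM with a mean of 1180 ± 555 (SD, n = 6). The mir-240/786p::GFP low libraries, picked for being dim, held 206, 166, 200 and 164 CPM. Each reporter strain's high and low libraries did not overlap in gfp, with exact two-sided permutation p = 0.0022 for lin-4p::GFP (n = 6 against 6) and 0.0286 for both other reporters (n = 4 against 4). The permutations did not keep the pairing of high and low libraries by sort, and the animals had been sorted on this GFP. These p-values therefore serve only as a check of the labels. In the reporter-free autofluorescence low libraries gfp came to 16, 10 and 8 counts, at most 0.662 CPM, and the autofluorescence high libraries held 0 or 1 count.

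Of the 14245 genes, 716 (5.03%) were called as differing among the 4 predicted long-lived groups, and 4052 (28.4%) passed at an adjusted p under 0.05. The 6 pairwise comparisons were very unequal. The largest, lin-4p::GFP high against mir-240/786p::GFP low, had 687 genes called (4.82%), 282 higher (1.98%) and 405 lower (2.84%) in lin-4p::GFP high. Lin-4p::GFP high against mir-243p::GFP high had 379 (2.66%), 176 higher (1.24%) and 203 lower (1.43%). Between mir-240/786p::GFP low and autofluorescence low 69 genes were called (0.484%), 21 higher (0.147%) and 48 lower (0.337%) in the former, and between mir-243p::GFP high and autofluorescence low 35 (0.246%), 4 higher (0.0281%) and 31 lower (0.218%). The closest pairs were lin-4p::GFP high and autofluorescence low, with 8 genes called (0.0562%), all higher in lin-4p::GFP high, and mir-243p::GFP high and mir-240/786p::GFP low, with 6 (0.0421%), 4 higher (0.0281%) in mir-243p::GFP high and 2 lower (0.014%). At an adjusted p under 0.05 the same 6 comparisons, in the order given, had 4289 (30.1%), 3354 (23.5%), 1247 (8.75%), 758 (5.32%), 121 (0.849%) and 154 (1.08%) genes. At that threshold 0.618% of genes were higher and 0.463% lower in mir-243p::GFP high than in mir-240/786p::GFP low, 0.47% were higher and 0.379% lower in lin-4p::GFP high than in autofluorescence low, and 2.32% and 3.32% were lower in mir-243p::GFP high and mir-240/786p::GFP low than in autofluorescence low. The calls depend on single libraries and on the tool. Leaving out 1 of the 17 libraries at a time gave 325 to 679, 120 to 350, 7 to 69, 12 to 39, 5 to 9 and 4 to 7 genes in that order, and DESeq2 called 1472, 961, 299, 151, 30 and 41. Lin-4p::GFP high against mir-240/786p::GFP low fell to 348, 325 and 351 genes without mir-240/786p::GFP low library 1, 3 or 4, and lin-4p::GFP high against mir-243p::GFP high to 246 without lin-4p::GFP high library 2 and to 120 and 148 without mir-243p::GFP high library 3 or 4. The comparisons with autofluorescence low, a group of 3, moved as well. Against mir-240/786p::GFP low it had 17, 7 and 17 genes without its library 1, 2 or 3 and 8, 29, 35 and 9 without mir-240/786p::GFP low library 1, 2, 3 or 4. Against mir-243p::GFP high it had 17, 12 and 19, and 20, 22, 15 and 16 without mir-243p::GFP high library 1, 2, 3 or 4. Against lin-4p::GFP high it had 5 without autofluorescence low library 3. The 716 genes among the groups became 459 without mir-240/786p::GFP low library 3.

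**Figure D1:**
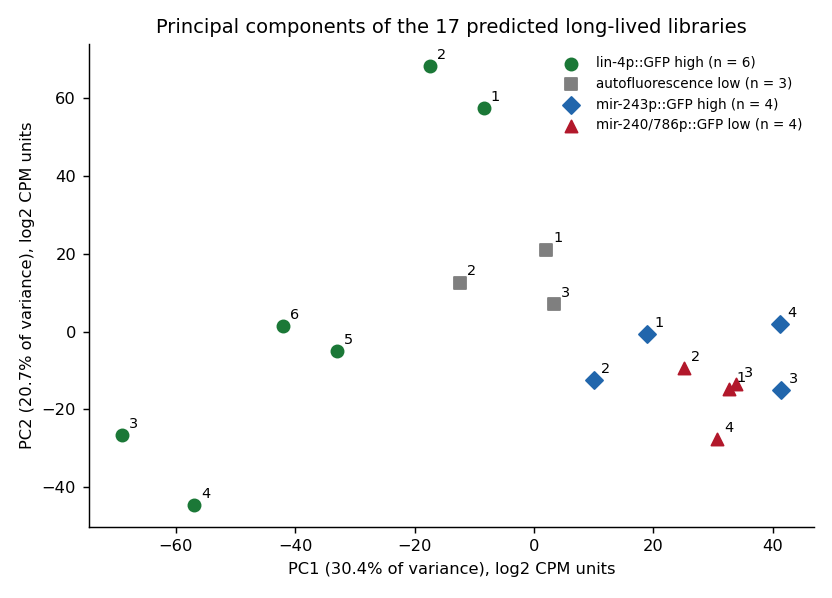
Principal components of log2 CPM in the 17 predicted long-lived libraries, with the first component (30.4% of the variance) across and the second (20.7%) up. Each point is 1 library, numbered by sort, and colour and shape give the group. Both other reporter groups lie to the right of all lin-4p::GFP high and autofluorescence low libraries, the autofluorescence low libraries lie within or just right of the lin-4p::GFP high range, and lin-4p::GFP high sorts 1 and 2 lie above the other 4.

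Median distances between the overall profiles gave a different order of likeness from the counts of called genes. The first principal component held 30.4% of the variance among the 17 libraries, and 81% of its variance lay between the groups. The second held 20.7%, and 17.1% of that lay between groups. It set lin-4p::GFP high sorts 1 and 2, at 57.5 and 68.3, apart from the other 4 sorts of the same group, at −44.6 to 1.5. The median distance between sorts 1 and 2 and sorts 3 to 6 was 106 log2 CPM units, as large as the 102 and 104 between lin-4p::GFP high and the mir-243p::GFP high and mir-240/786p::GFP low libraries, and larger than the 82.7 to autofluorescence low. Median distances within lin-4p::GFP high, mir-243p::GFP high, mir-240/786p::GFP low and autofluorescence low were 87.9, 64.6, 55 and 60. The 82.7 between lin-4p::GFP high and autofluorescence low was thus below the median within lin-4p::GFP high itself. The mir-243p::GFP high and mir-240/786p::GFP low libraries were 72.6 apart. The autofluorescence low libraries lay 74 from mir-240/786p::GFP low and 81.1 from mir-243p::GFP high, so that by distance they were no nearer to lin-4p::GFP high, although few genes were called between these 2 groups. The comparisons were therefore also made without sorts 1 and 2 and without sorts 3 to 6. In these fits lin-4p::GFP high differed from mir-243p::GFP high in 927 and 1116 genes, from mir-240/786p::GFP low in 1070 and 1692, and from autofluorescence low in 14 and 306.

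Only a few genes were particular to 1 group, in the sense of being called against each of the other 3. In lin-4p::GFP high there were 6 such genes (0.0421%), all higher. In mir-243p::GFP high there were 2 higher (0.014%) and 1 lower (0.00702%). Mir-240/786p::GFP low and autofluorescence low had 0 each at this threshold by edgeR. At an adjusted p under 0.05 they had 39 higher and 10 lower, and 4 higher and 2 lower, and DESeq2 called 7 and 1. The number for lin-4p::GFP high was 12 without sorts 1 and 2 and 259 without sorts 3 to 6.

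The genes that marked the lin-4p::GFP animals included 3 with known roles. Dyf-3 (IV, 3396581 to 3399231) encodes a part of the machinery that builds sensory cilia. Its lowest, median and highest levels in the 6 lin-4p::GFP high libraries were 30.2, 32.7 and 39 CPM. In mir-243p::GFP high it was 6.33, 4.89, 5.36 and 4.78 CPM, in mir-240/786p::GFP low 8.61, 7.97, 6.19 and 7.43 CPM, and in autofluorescence low 9.1, 7.85 and 7.54 CPM. No library of another group reached the lowest of lin-4p::GFP high, and the difference from autofluorescence low was 2.04 ± 0.19 (adjusted p = 2.89e-08). Aex-5 (I, 14850052 to 14855827) encodes a proprotein convertase required for the defecation motor program, and its annotation overlaps maph-1.1 and str-245, so that reads could be shared. It ranged from 37.8 to 101 CPM with a median of 77 in lin-4p::GFP high, and was 12.5, 10.2, 13.3 and 9.65 CPM in mir-243p::GFP high. In mir-240/786p::GFP low it was 6.91, 6.69, 6.42 and 10 CPM, and in autofluorescence low 5.58, 4.97 and 5.51 CPM. The spread among the lin-4p::GFP sorts was wide but did not reach the other groups, and the difference from autofluorescence low was 3.74 ± 0.36 (adjusted p = 6.99e-08).

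Pept-2 (IV, 10790653 to 10794559), which encodes an oligopeptide transporter, behaved like dyf-3. It was 101, 128 and 138 CPM (lowest, median and highest) in lin-4p::GFP high, 27.2 to 32.3 CPM in mir-243p::GFP high, 27.1 to 34.7 CPM in mir-240/786p::GFP low and 23.6 to 25.4 CPM in autofluorescence low, where the difference was 2.35 ± 0.20 (adjusted p = 2.68e-09). The other 3 genes have no role given here. C08F11.7 (IV, 13637275 to 13638666) was 8.85, 11.1 and 11.8 CPM in lin-4p::GFP high and between 0.154 and 0.642 CPM, close to the floor, in the 11 other libraries. C55C3.3 (IV, 5685287 to 5688273) was 20.9, 49.8 and 65.5 CPM against at most 9.06 CPM elsewhere, and B0511.11 (I, 10648600 to 10654237) was 19.8, 33.8 and 35 CPM against at most 6.19 CPM. Against autofluorescence low the fitted differences were 4.94 ± 0.40 (adjusted p = 2.68e-09), 3.52 ± 0.44 (1.50e-05) and 2.57 ± 0.28 (4.80e-07). The C55C3.3 call was lost without autofluorescence low library 1 or 3, with adjusted p up to 0.00103. All 6 genes stayed high in the predicted short-lived animals of the same strain, where lin-4p::GFP low averaged 25.2 CPM for dyf-3, 28.9 for aex-5, 81.1 for pept-2, 9.96 for C08F11.7, 30.9 for C55C3.3 and 19.4 for B0511.11. They separated the lin-4p::GFP strain from the others at both brightness levels.

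In mir-243p::GFP high the most extreme gene was unc-119, which encodes a lipid-binding chaperone needed for neuronal function. A wild-type copy of it is a common marker for making transgenic worms. Its level was 2179, 2488, 3073 and 3661 CPM in mir-243p::GFP high and 283, 253, 326 and 284 CPM in mir-240/786p::GFP low. It was 14.1, 15.8 and 22.8 CPM (lowest, median and highest) in lin-4p::GFP high compared with 17.9, 18.4 and 20.6 CPM in autofluorescence low. The 3 levels did not overlap: mir-243p::GFP high was above mir-240/786p::GFP low by 3.31 ± 0.21 (adjusted p = 1.46e-12), and that group was above autofluorescence low by 3.92 ± 0.24 (2.17e-12) and above lin-4p::GFP high, whose difference from it was −4.06 ± 0.18 (3.14e-16). Lin-4p::GFP high and autofluorescence low overlapped. The predicted short-lived animals had the same order, with means of 3314, 608, 47.6 and 31.8 CPM in mir-243p::GFP low, mir-240/786p::GFP high, autofluorescence high and lin-4p::GFP low.

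R08C7.12 (IV, 4449739 to 4460130) also marked the mir-243p::GFP strain. This gene spans the mir-243 locus itself (IV, 4450779 to 4450876), and it overlaps chat-1 and M01H9.2. It was 111, 81.2, 122 and 91.2 CPM in mir-243p::GFP high and between 3.28 and 7.22 CPM in all 13 other libraries, a difference of 4.01 ± 0.22 from mir-240/786p::GFP low (adjusted p = 5.58e-14). Mir-243p::GFP low averaged 70 CPM, so that the gene was high in both brightness groups. Its neighbour chat-1, next on the left of the microRNA, was at 174 to 185 CPM in mir-243p::GFP high and 141 to 178 CPM elsewhere and was not called. The 1 gene lower in mir-243p::GFP high than in every other group was F42A9.6 (IV, 8609234 to 8611627, overlapping F42A9.17), at 19.1, 17.2, 13.3 and 13.9 CPM against 36.7 to 39.7 CPM in mir-240/786p::GFP low, 27.1, 44.8 and 41.5 CPM in autofluorescence low and 46.1, 56.5 and 73.9 CPM in lin-4p::GFP high. Its difference from mir-240/786p::GFP low was −1.25 ± 0.16 (adjusted p = 1.34e-05), and the call was lost when mir-240/786p::GFP low library 1 or mir-243p::GFP high library 3 or 4 was left out, with adjusted p up to 0.000678.

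None of the genes tested beside the other 2 microRNA loci was called between the groups with all libraries in the fit. Tsp-18, next on the right of lin-4, had at most 6 counts in any of the 17 libraries and was not tested. F59G1.4, which spans lin-4 (II, 5902254 to 5902347), was at 0.713 to 2.47 CPM in lin-4p::GFP high compared with 1.24 to 3.57 CPM in the rest. C39D10.8 and pcyt-2.2, on either side of mir-240 and mir-786 on X, were at 6.09 to 8.31 and 2.49 to 4 CPM in mir-240/786p::GFP low, within the range of the other groups. Rfip-1, a Rab11-interacting protein gene on the left of lin-4, was at 31 to 44.9 CPM in lin-4p::GFP high compared with 46.6 to 53.9 CPM in mir-240/786p::GFP low (−0.48 ± 0.12, adjusted p = 0.0022, not called). These libraries did not overlap, and the gene was called without lin-4p::GFP high sorts 1 and 2 (−0.60, adjusted p = 2.02e-05). The temperature-sensitive gene spe-9 itself was at most 1.07 CPM in any of the 17 libraries (adjusted p = 0.0914 among the groups). Rol-6, a collagen gene often used as a transformation marker, had at most 11 counts in any of the 17 libraries and was not tested.

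**Figure D2:**
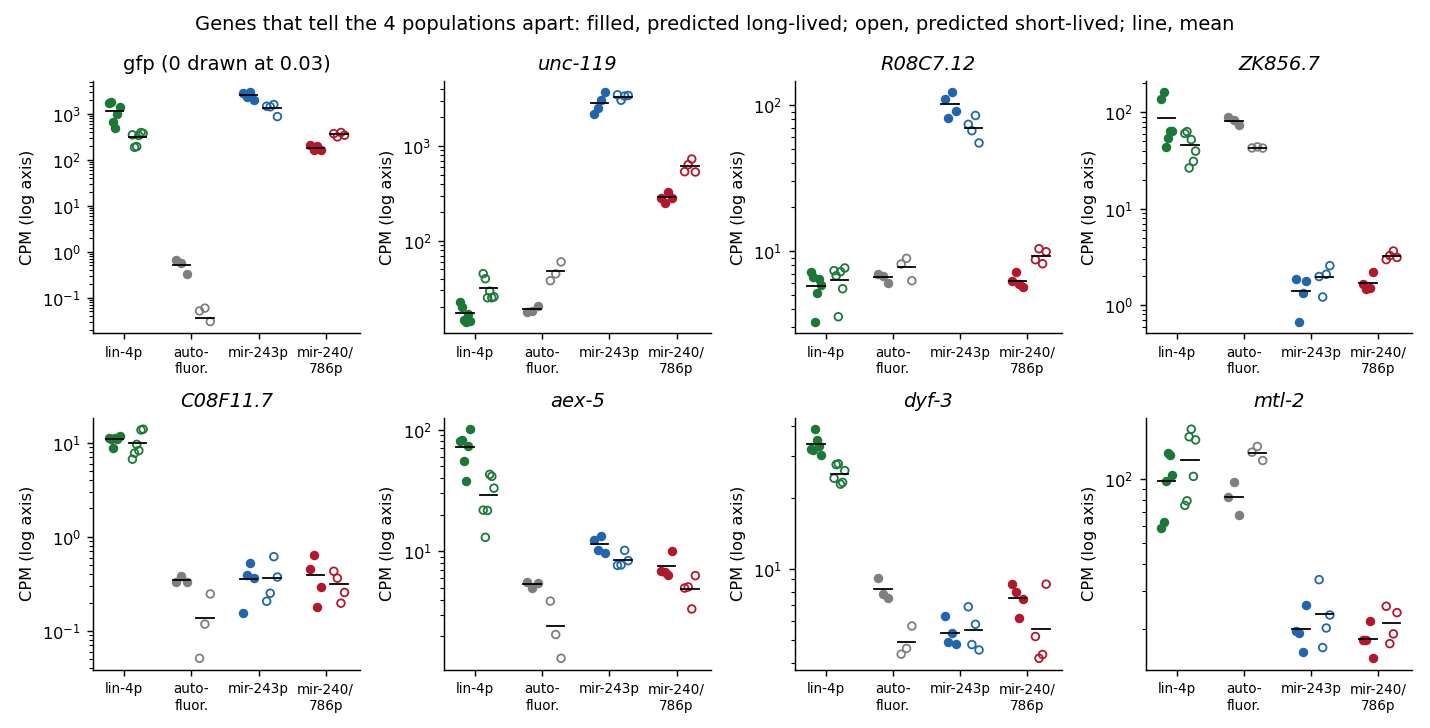
Level of 8 transcripts in every library, in CPM on a log axis, by biomarker. Filled points are predicted long-lived libraries, open points are predicted short-lived libraries of the same strain and lines are means, with a gfp count of 0 drawn at 0.03. Filled and open points of a strain lie near each other for unc-119, R08C7.12, ZK856.7, C08F11.7 and mtl-2, while the strains lie far apart.

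The direct comparison of mir-243p::GFP high with mir-240/786p::GFP low left 4 genes beyond unc-119 and R08C7.12. Y37H2A.14 (V, 18143745 to 18144720) was 30.2, 22.8, 32.3 and 27.5 CPM in mir-243p::GFP high and 3.15, 4.16, 4.97 and 2.15 CPM in mir-240/786p::GFP low (2.96 ± 0.31, adjusted p = 4.99e-07). B0024.4 (V, 10297399 to 10298985) was 21.5, 24.6, 29.7 and 23 CPM against 3.1, 2.19, 3.52 and 2.38 CPM (3.14 ± 0.40, 1.53e-05). The third, F56F11.2 (III, 2882289 to 2885020), was 0.656, 0.844, 0.741 and 0.851 CPM in mir-243p::GFP high and 3.15, 3.1, 2.89 and 3.25 CPM in mir-240/786p::GFP low (−2.0 ± 0.22, 1.84e-06). The fourth was F42A9.6, described above. F56F11.2 differed between these 2 populations at either brightness, at 0.974 CPM in mir-243p::GFP low and 3 CPM in mir-240/786p::GFP high on average. B0024.4 did not: its means in the 2 short-lived groups were 36.6 and 33.6 CPM, and its low level was seen in mir-240/786p::GFP low alone of those 4 groups. The B0024.4 call was lost without any 1 mir-240/786p::GFP low library or without mir-243p::GFP high library 3 (adjusted p up to 0.000385), and when lin-4p::GFP sorts 3 to 6 were left out of the fit (0.000129). With only the 17 long-lived libraries in the fit all 4 calls were lost. The adjusted p was then 0.000564 for Y37H2A.14, 0.00503 for B0024.4, 0.000784 for F56F11.2 and 0.00355 for F42A9.6.

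For one set of genes lin-4p::GFP high and autofluorescence low stood on one side of a split, and mir-243p::GFP high and mir-240/786p::GFP low on the other, as on the first principal component but not by median distance. At an adjusted p under 0.05, 210 genes were higher and 220 lower in both former groups than in both latter groups, in all 4 comparisons across the split, and at the 0.0001 threshold 26 were higher and 3 lower. All 26 had an exonic length of at most 500 nt, against a median of 1386.5 nt over all genes tested. Of the 210 genes 170 were that short, and of the 220 only 2.

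ZK856.7 (V, 10202098 to 10202610, overlapping chpf-1) was one of the 26. It was 43.9, 63.6 and 161 CPM (lowest, median and highest) in lin-4p::GFP high compared with 88.4, 82.7 and 74.1 CPM in autofluorescence low, but 1.85, 0.675, 1.35 and 1.78 CPM in mir-243p::GFP high and 1.65, 1.47, 1.49 and 2.21 CPM in mir-240/786p::GFP low. The differences were 5.69 ± 0.38 for lin-4p::GFP high against mir-240/786p::GFP low (adjusted p = 1.11e-11) and −5.82 ± 0.40 for mir-243p::GFP high against autofluorescence low (1.41e-11). The predicted short-lived libraries kept the order, with means of 45.5, 43, 1.96 and 3.25 CPM in lin-4p::GFP low, autofluorescence high, mir-243p::GFP low and mir-240/786p::GFP high. K08D9.9 (V, 3236444 to 3236710), not among the 26, was at 12.9, 9.84 and 11.6 CPM in autofluorescence low and 0.929 to 1.65 CPM in mir-240/786p::GFP low (−3.08 ± 0.37, 4.74e-06).

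Metallothionein genes encode small cysteine-rich proteins that bind metal ions, and 1 of the 2 was among the 26. Mtl-2 (V, 14018270 to 14018673) was 58.9, 101 and 131 CPM in lin-4p::GFP high compared with 82.6, 96.9 and 68.1 CPM in autofluorescence low. It was 19.6, 19.2, 15.7 and 25.8 CPM in mir-243p::GFP high and 17.7, 17.7, 21.7 and 14.6 CPM in mir-240/786p::GFP low, a difference of 2.43 ± 0.26 between lin-4p::GFP high and mir-240/786p::GFP low (adjusted p = 9.43e-08). Mtl-1 (V, 6691371 to 6691863) was 36.4, 48.3 and 62.6 CPM in lin-4p::GFP high against 5.25, 6.88, 8.81 and 6.5 CPM in mir-240/786p::GFP low (2.83 ± 0.27, 1.27e-08), with 14.6 to 23 CPM in mir-243p::GFP high and 23.8 to 43.3 CPM in autofluorescence low. These were the 2 genes called of 11 metal-response genes tested. At an adjusted p under 0.05, where 14.2% of all genes were higher and 15.9% lower in lin-4p::GFP high than in mir-240/786p::GFP low, 4 of the 11 were higher and 2 lower. Smf-1, a metal ion transporter gene, was at 20.5 to 24.7 CPM against 30.4 to 42.1 CPM (−0.62 ± 0.12, adjusted p = 0.000172).

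The ribosomal protein genes were also higher in lin-4p::GFP high and autofluorescence low than in mir-243p::GFP high and mir-240/786p::GFP low. The rps and rpl families, which encode the small and large ribosomal subunit proteins, had 77 members tested. At an adjusted p under 0.05, 32 were higher and 0 lower in lin-4p::GFP high than in mir-243p::GFP high, where 9.94% of all genes were higher, and 45 were higher and 0 lower than in mir-240/786p::GFP low, where 14.2% were. Without sorts 1 and 2 these counts were 43 higher and 2 lower and 55 higher and 0 lower, and without sorts 3 to 6 they were 36 and 6 and 44 and 2. Their median differences were 0.32 and 0.48, against 0.00 and 0.01 over all genes. Between lin-4p::GFP high and autofluorescence low 0 of the 77 differed at 0.05 with all libraries in the fit, with a median difference of 0.03. In mir-243p::GFP high and mir-240/786p::GFP low 17 and 32 were lower than in autofluorescence low, where 2.32% and 3.32% of all genes were lower. The mean log2 CPM of the rps genes was 9.843, 9.804, 9.369 and 9.239 in lin-4p::GFP high, autofluorescence low, mir-243p::GFP high and mir-240/786p::GFP low. In their short-lived partners it was 9.470, 9.210, 9.264 and 8.944. The rpl means were 9.318, 9.333, 8.891 and 8.793, and 9.047, 8.830, 8.861 and 8.576 in the partners. Rps-21 was 497, 603 and 709 CPM in lin-4p::GFP high compared with 182, 209, 206 and 190 CPM in mir-240/786p::GFP low (1.62 ± 0.18, adjusted p = 1.86e-07). Rps-27 was 562, 669 and 746 CPM against 258, 277, 262 and 249 CPM (1.34 ± 0.16, 4.68e-07), and rpl-38 was 375, 659 and 775 CPM against 199, 220, 251 and 191 CPM (1.46 ± 0.22, 8.22e-06). The groups did not overlap for any of the 3, though the rpl-38 call was lost without mir-240/786p::GFP low library 1 or 4 (adjusted p up to 0.00011). The ribosomal stalk gene rla-2 was 630, 628 and 592 CPM in autofluorescence low and 201 to 258 CPM in mir-243p::GFP high (−1.41 ± 0.17, 2.06e-06), and 194 to 229 CPM in mir-240/786p::GFP low (−1.54 ± 0.17, 9.32e-07). Rps-28 was 285, 482 and 609 CPM in lin-4p::GFP high compared with 93.2 to 126 CPM in mir-243p::GFP high (2.03 ± 0.26, 1.50e-06).

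Some of the called genes encode mitochondrial proteins. They were named as called genes and were not tested as a list. Nduv-3, a respiratory complex I subunit gene, was 40.3, 49.4 and 83.1 CPM in lin-4p::GFP high compared with 14.7, 14.1, 11.7 and 16.4 CPM in mir-243p::GFP high (2.00 ± 0.19, adjusted p = 9.01e-09). Ucr-11 of complex III was 44.7, 85.9 and 103 CPM against 23.7, 25.7, 18.6 and 23.2 CPM (1.75 ± 0.21, 5.28e-07), and hpo-18, an ATP synthase subunit gene, was 87.4, 167 and 215 CPM against 41.1 to 52.4 CPM (1.74 ± 0.20, 4.78e-07). Genes of the import machinery differed from mir-240/786p::GFP low by 1.61 ± 0.19 for tomm-7 (35.2, 63.8 and 68.6 CPM against 14.9 to 20.8 CPM), 1.70 ± 0.21 for tin-10 (39.2, 45.8 and 72 CPM against 15.1 to 17.6 CPM) and 1.12 ± 0.12 for ddp-1 (56.2, 68 and 80.2 CPM against 25.9 to 37.1 CPM). In autofluorescence low nduv-3 was 45.8, 50.6 and 49.2 CPM and tomm-7 was 52.9, 52.5 and 51.3 CPM, inside the range of lin-4p::GFP high. The related RNA-binding protein genes rbm-3.1 and rbm-3.2 and emb-1, a subunit gene of the anaphase-promoting complex, were among the 26 too. Rbm-3.2 was 734 to 801 CPM in autofluorescence low and 300 to 366 CPM in mir-240/786p::GFP low (−1.21 ± 0.14, 3.95e-06), and emb-1 was 35.3 to 42.1 CPM in autofluorescence low and 9.32 to 14.6 CPM in mir-243p::GFP high (−1.59 ± 0.18, 2.00e-06). The rbm-3.2 call was lost without autofluorescence low library 2 (adjusted p = 0.00011).

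**Figure D3:**
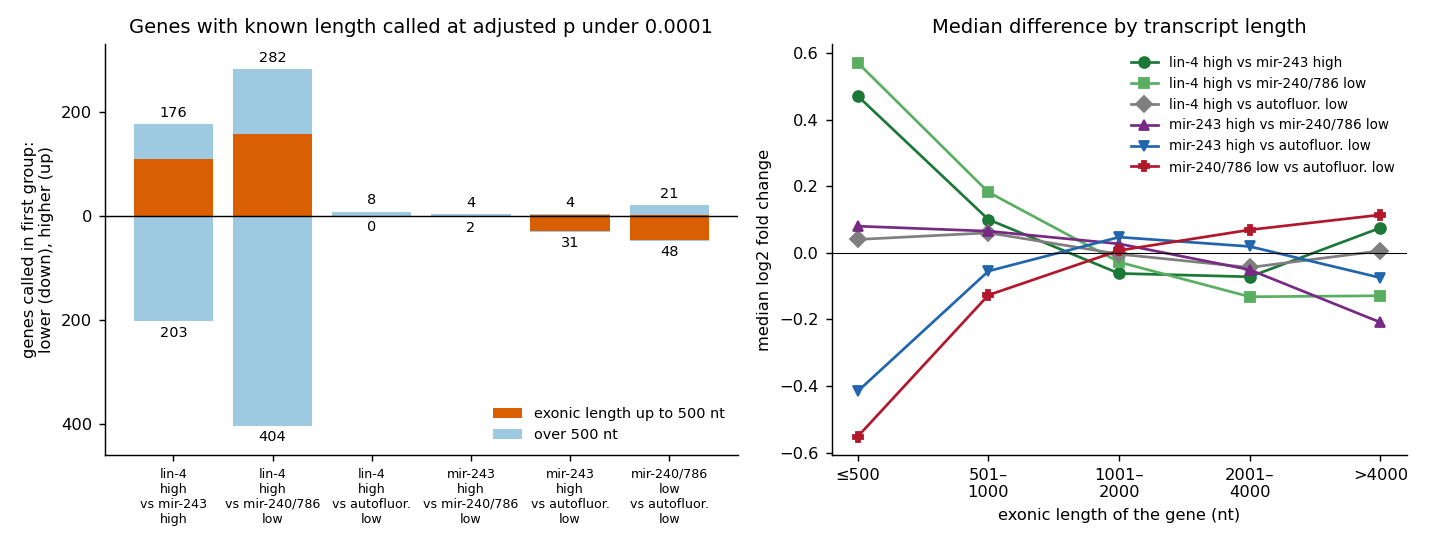
Left, genes of known exonic length called in each of the 6 comparisons, higher in the first group upwards and lower downwards, with genes of up to 500 nt in orange and longer genes in blue. Right, median log2 fold change by exonic length class for the same comparisons, where the shortest class is at 0.47 and 0.57 for lin-4p::GFP high against both other reporter groups and at −0.42 and −0.55 for those groups against autofluorescence low.

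Transcript length moved with this split over all genes. The 978 tested genes of up to 500 nt had median differences of 0.47 and 0.57 for lin-4p::GFP high against mir-243p::GFP high and mir-240/786p::GFP low, of −0.42 and −0.55 for those 2 groups against autofluorescence low, and of 0.04 and 0.08 for the remaining pairs. The same medians in the predicted short-lived groups were 0.34, 0.42, −0.36, −0.44, 0.01 and 0.08. When a smooth trend with length was removed from each library, lin-4p::GFP high against mir-243p::GFP high had 90 genes higher and 157 lower in place of 176 and 203. Lin-4p::GFP high against mir-240/786p::GFP low had 147 and 346 in place of 282 and 405. Mir-243p::GFP high against autofluorescence low had 6 and 6 in place of 4 and 31, and mir-240/786p::GFP low against autofluorescence low 38 and 6 in place of 21 and 48. Of the ribosomal genes 13 and 21 were then higher and 2 and 1 lower at 0.05 than in mir-243p::GFP high and mir-240/786p::GFP low. Rps-27, rps-28, rps-21, rpl-38, tomm-7, ddp-1, emb-1 and rbm-3.2 no longer passed, while ZK856.7, mtl-1, mtl-2, nduv-3, ucr-11, hpo-18, tin-10, rla-2 and K08D9.9 still did. The part of the libraries' trend with length in these results was not tested further.

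The 3 genes on the other side of the split were unc-119 and a pair from the mitochondrial genome. WBGene00010961 (MtDNA, 3389 to 4269) was 285, 228, 156 and 176 CPM in mir-243p::GFP high and 176, 167, 251 and 278 CPM in mir-240/786p::GFP low. It was 16.4, 15.5 and 18.4 CPM in autofluorescence low (3.65 ± 0.41 for mir-243p::GFP high, adjusted p = 1.77e-06, and 3.70 ± 0.41 for mir-240/786p::GFP low, 1.75e-06) and 19.4, 29.5 and 55 CPM in lin-4p::GFP high. WBGene00010966 (MtDNA, 11356 to 11691, overlapping WBGene00010967) was 66.1 to 123 CPM in mir-243p::GFP high and 12.5 to 17.5 CPM in autofluorescence low (2.57 ± 0.30, 2.00e-06). Both differed between the populations at either brightness, with WBGene00010961 averaging 130 and 170 CPM in mir-243p::GFP low and mir-240/786p::GFP high and 34.2 and 12.9 CPM in lin-4p::GFP low and autofluorescence high. Of the other 9 mitochondrial genes tested, none was called in any of the 6 comparisons. At 0.05, 3 and 4 were higher in lin-4p::GFP high than in mir-243p::GFP high and mir-240/786p::GFP low, the direction opposite to that of the pair. Of all genes 9.94% and 14.2% were higher there.

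Among the longer genes that were lower in lin-4p::GFP high were those of several families. One was fbxb, F-box genes whose proteins are thought to present targets to a ubiquitin ligase, with 100 of 104 members tested. At an adjusted p under 0.05, 74 of 100 were lower and 0 higher in lin-4p::GFP high than in mir-243p::GFP high, where 13.6% of all genes were lower, and 87 were lower and 0 higher than in mir-240/786p::GFP low, where 15.9% were. Against autofluorescence low 24 of 100 were higher in mir-243p::GFP high and 57 in mir-240/786p::GFP low, where 3% and 5.43% of all genes were higher. The mean log2 CPM of the family was 1.71 ± 0.42 (SD, n = 6) in lin-4p::GFP high, 1.95 ± 0.18 (n = 3) in autofluorescence low, 2.64 ± 0.28 (n = 4) in mir-243p::GFP high and 2.89 ± 0.17 (n = 4) in mir-240/786p::GFP low. In the predicted short-lived groups it was 2.55, 3.06, 2.7 and 3.03 in that order of strains, so that the 2 low long-lived groups were below their own short-lived partners, and the other 2 were near theirs. Many of these genes lie in clusters of similar copies, between which the counting could have divided reads. Without sorts 1 and 2, 85 and 94 were lower than in mir-243p::GFP high and mir-240/786p::GFP low, and without sorts 3 to 6, 34 and 63 of 102 tested.

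Fbxb-26 (II, 1682518 to 1683655) can stand for the family. It was 5.99, 6.96 and 9.45 CPM in lin-4p::GFP high compared with 17.4, 14.9, 25 and 16.4 CPM in mir-240/786p::GFP low (−1.32 ± 0.18, adjusted p = 1.75e-06), with 14.6, 16.6, 20.2 and 22 CPM in mir-243p::GFP high and 8.89, 6.91 and 8.2 CPM in autofluorescence low. Fbxb-41 was 9.3, 13.7 and 19.9 CPM in lin-4p::GFP high against 31.4 to 42.1 CPM in mir-240/786p::GFP low (−1.41 ± 0.19, 2.24e-06), and fbxb-107 was 3.48, 4.24 and 7.22 CPM against 11.1 to 15.5 CPM (−1.48 ± 0.22, 9.98e-06). No lin-4p::GFP high library overlapped mir-240/786p::GFP low in any of the 3, and autofluorescence low lay inside the lin-4p::GFP high range for fbxb-26 and fbxb-41. All 3 calls were lost when sorts 3 to 6 were left out, with differences of −1.12, −1.08 and −1.10, and that of fbxb-107 without mir-240/786p::GFP low library 3 (adjusted p = 0.000119). In the related fbxc family 29 and 26 of 45 tested were lower at 0.05 than in mir-243p::GFP high and mir-240/786p::GFP low, against 13.6% and 15.9% of all genes. These counts were 32 and 27 of 44 without sorts 1 and 2 and 15 and 23 of 45 without sorts 3 to 6. Between lin-4p::GFP high and autofluorescence low 0 of the 45 fbxc genes differed with all libraries in the fit. Of 19 tested skr genes, whose proteins bind F-box proteins in the same ligases, 4 and 10 were lower and 3 and 3 higher. Fbxc-18 was 6.9, 8.86 and 12.3 CPM in lin-4p::GFP high against 22.9 to 33.3 CPM in mir-240/786p::GFP low (−1.50 ± 0.18, 6.98e-07), and skr-7 was 75.7, 108 and 141.9 CPM against 206 to 285 CPM (−1.08 ± 0.15, 2.23e-06). Both calls were lost without sorts 3 to 6 (adjusted p = 0.000133 and 0.000309).

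**Figure D4:**
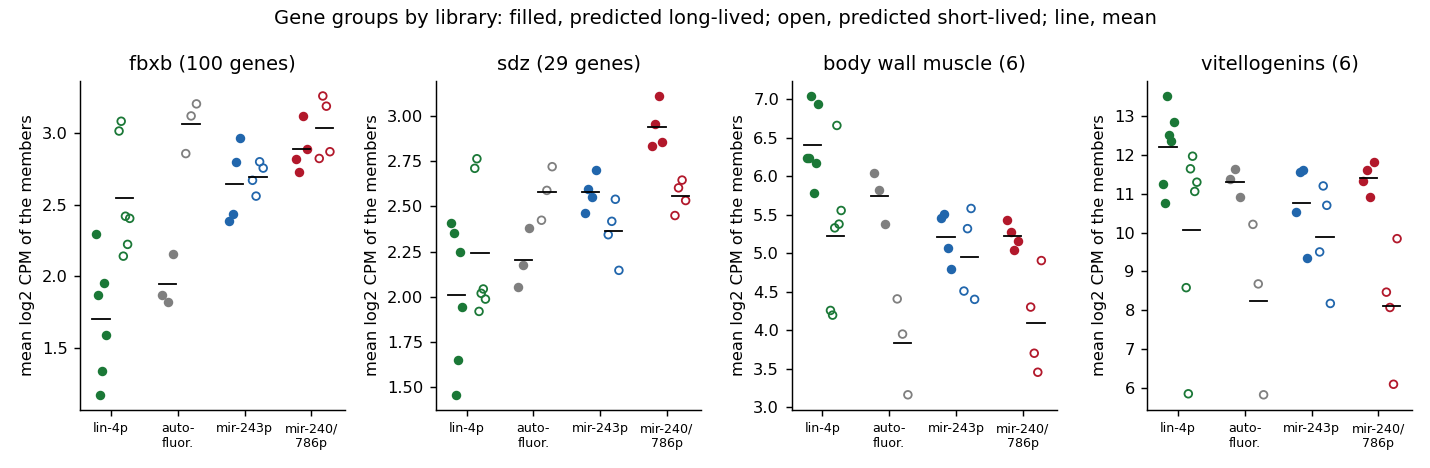
Mean log2 CPM of 4 gene groups in every library, by biomarker, with filled points for predicted long-lived libraries, open points for predicted short-lived libraries and lines for means. The fbxb and sdz genes are highest in mir-240/786p::GFP low among the filled points and lower in lin-4p::GFP high and autofluorescence low. The muscle genes are highest in lin-4p::GFP high, and the vitellogenin points of the 4 long-lived groups overlap.

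A second set of genes, first known from the early embryo, was highest in mir-240/786p::GFP low. The sdz genes were named as zygotic transcripts that depend on the maternal factor SKN-1, and the vet genes as very early transcripts. Of 29 sdz genes tested, 11 were lower and 0 higher at 0.05 in lin-4p::GFP high than in mir-243p::GFP high, and 20 were lower and 1 higher than in mir-240/786p::GFP low, while 16 were higher and 0 lower in mir-240/786p::GFP low than in autofluorescence low. Of all genes 13.6% and 15.9% were lower in the first comparisons and 5.43% higher in the last. Only 2 of the 29 were lower and 0 higher at 0.05 in mir-243p::GFP high than in mir-240/786p::GFP low, where 0.463% of all genes were lower. Without sorts 1 and 2, 15 and 22 of 29 were lower than in mir-243p::GFP high and mir-240/786p::GFP low, and without sorts 3 to 6, 6 and 18 of 30. Sdz-28 (II, 2131070 to 2132475) was 89.2, 85.4, 119.1 and 98.6 CPM in mir-240/786p::GFP low and 21, 33.5 and 49.4 CPM in lin-4p::GFP high (−1.48 ± 0.17 for lin-4p::GFP high, adjusted p = 4.00e-07). It was 48.5, 59.7, 56.4 and 71.1 CPM in mir-243p::GFP high and 39.9, 38.2 and 47.6 CPM in autofluorescence low, where the difference of 1.23 ± 0.22 had an adjusted p of 0.000394. All mir-240/786p::GFP low libraries lay above those of the other 3 groups, which formed a continuous range. Sdz-30 was at 34.4 to 43.5 CPM in mir-240/786p::GFP low and 9.3 to 23.2 CPM in lin-4p::GFP high (−1.39 ± 0.17, 9.34e-07), and sdz-9 at 23.2 to 35.6 and 7.85 to 16.6 CPM (−1.36 ± 0.17, 1.13e-06).

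All 3 vet genes tested were called between the same 2 groups. Vet-6 was 135, 132, 161 and 139 CPM in mir-240/786p::GFP low and 44.8, 54.4 and 82.1 CPM in lin-4p::GFP high (−1.30 ± 0.15, adjusted p = 2.72e-07), vet-1 was 84.6 to 116 CPM against 33.2 to 57.5 CPM (−1.02 ± 0.14, 1.71e-06), and vet-2 was 156 to 189 CPM against 67 to 122 CPM (−1.01 ± 0.14, 1.80e-06). In none of the 3 did the libraries overlap. The mir-243p::GFP high libraries, at 57.6 to 81 CPM for vet-6, lay below mir-240/786p::GFP low as well. Here the short-lived partner did not share the level, since mir-240/786p::GFP high averaged 60.4, 44.1 and 102 CPM for vet-6, vet-1 and vet-2. The early embryo markers, 3 tested of 6, summed to 32.8 to 41.4 CPM in mir-240/786p::GFP low against 15.7 to 27.4 CPM in the other 3 groups, none of them being at 0. Whether embryos, oocytes or other tissue carried these transcripts was not tested.

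Families of transcription factor genes differed in their shares. Of 46 ceh homeobox genes tested, 17 and 19 were lower at 0.05 in lin-4p::GFP high than in mir-243p::GFP high and mir-240/786p::GFP low, and of 16 tbx genes 3 and 8, where 13.6% and 15.9% of all genes were lower. The first tbx count is near that share. The ceh counts were 21 and 26 of 46 without sorts 1 and 2 and 14 and 16 of 49 without sorts 3 to 6. Against autofluorescence low, with all libraries in the fit, 0 ceh genes differed at 0.05 and 1 nuclear hormone receptor gene was lower in lin-4p::GFP high. Of 189 nuclear hormone receptor genes 53 and 40 were lower and 1 and 2 higher, but without sorts 3 to 6 the second count turned to 18 lower and 28 higher, so that its direction depends on the sorts. Ceh-32, a Six-type homeobox gene of head development, was 40.6, 53.3 and 68.6 CPM in lin-4p::GFP high compared with 153, 131, 225 and 202 CPM in mir-240/786p::GFP low (−1.74 ± 0.21, adjusted p = 6.72e-07), and its 47.2, 50.5 and 60.8 CPM in autofluorescence low lay inside the lin-4p::GFP high range. Nhr-2, a nuclear receptor gene of the early embryo, was 41.2, 47.4 and 60.7 CPM against 101 to 129 CPM (−1.17 ± 0.13, 2.12e-07), and tbx-11 was 8.49, 13.6 and 20 CPM against 29.1 to 42.1 CPM (−1.37 ± 0.20, 4.99e-06). Ceh-86 was 17.6, 21 and 22.9 CPM in lin-4p::GFP high. It was 43.8, 38.9, 51.6 and 48.2 CPM in mir-240/786p::GFP low (−1.15 ± 0.15, 1.08e-06) and 17.8, 16.4 and 21.7 CPM in autofluorescence low (1.29 ± 0.18 for mir-240/786p::GFP low, 3.32e-05). The second ceh-86 call was lost under 6 of the 17 single omissions (each autofluorescence low library and mir-240/786p::GFP low library 1, 3 or 4, adjusted p up to 0.000888) and when the trend with length was removed. With that trend removed the difference was 1.20 (adjusted p = 0.000112). Ceh-37, an Otx-type homeobox gene, was 7.92, 9.37 and 11.5 CPM in lin-4p::GFP high compared with 17.6 to 22 CPM in mir-243p::GFP high (−1.09 ± 0.13, 9.39e-07). These 5 genes were lower in lin-4p::GFP high than in the group named with no overlap of libraries. The calls of ceh-86, ceh-37 and tbx-11 in lin-4p::GFP high were lost without sorts 3 to 6 (adjusted p 0.00017 to 0.000268).

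Among the genes called lower in lin-4p::GFP high than in the other reporter groups, X chromosome genes made up a larger share than among the genes tested. The X held 14.4% of the genes tested, 37.9% of the 203 genes lower in lin-4p::GFP high than in mir-243p::GFP high and 36.8% of the 405 lower than in mir-240/786p::GFP low. Of the genes higher in lin-4p::GFP high it held 3.41% and 5.67%. No such excess was seen in the comparisons with autofluorescence low, where few genes were called. There the X held 2 of the 21 genes higher in mir-240/786p::GFP low (9.52%) and 0 of the 4 higher in mir-243p::GFP high. Fox-1, an X-linked gene for an RNA-binding protein that counts X chromosomes in sex determination, was 19.9, 24.4 and 29.9 CPM in lin-4p::GFP high compared with 56.3, 49.6, 67 and 61.3 CPM in mir-240/786p::GFP low (−1.28 ± 0.13, adjusted p = 4.21e-08). Atrn-1, an attractin homologue on X, was 62.7, 72.3 and 89 CPM against 141.8 to 190 CPM (−1.20 ± 0.12, 1.78e-08) and was higher in mir-240/786p::GFP low than in autofluorescence low (78.6 to 96 CPM) by 0.98 ± 0.14 (3.91e-05), a call lost under the same 6 omissions as that of ceh-86 (adjusted p up to 0.000768) and when the trend with length was removed. K03A11.1 and madd-3, also on X, differed by −1.31 ± 0.13 (2.24e-08) and −0.86 ± 0.09 (4.04e-08), with 14.4 to 25.3 against 40.7 to 47.8 CPM and 25.8 to 32 against 49.4 to 55.2 CPM. The madd-3 call was lost when the trend with length was removed (−0.56, adjusted p = 0.0128). In the same fit the difference of atrn-1 between mir-240/786p::GFP low and autofluorescence low was 0.87 (adjusted p = 0.00147). All 4 were without overlap between lin-4p::GFP high and mir-240/786p::GFP low.

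Some genes of the cuticle and its renewal were called lower in lin-4p::GFP high than in mir-243p::GFP high, but the collagen genes as a family were not lower. Of 81 col genes tested 8 were higher and 4 lower at 0.05, with a median difference of 0.60. Of all genes 9.94% were higher and 13.6% lower there, so the count of higher col genes is near that share. Nhr-25 (X, 13008493 to 13013964) encodes a nuclear receptor that directs moulting and epidermal development. It was 4.08, 4.58 and 5.3 CPM in lin-4p::GFP high compared with 14.1, 13.9, 31.2 and 24.1 CPM in mir-243p::GFP high (−2.16 ± 0.19, adjusted p = 3.51e-09), with 9.06 to 10.8 CPM in mir-240/786p::GFP low and 7.57 to 12.4 CPM in autofluorescence low. Mir-243p::GFP high lay above and lin-4p::GFP high below all other libraries. Noah-1 and noah-2, which encode matrix proteins that attach the epidermis to the cuticle, were 48.6, 66.8 and 82.4 CPM against 163 to 445 CPM (−1.96 ± 0.23, 4.78e-07) and 27.6, 39.7 and 52.2 CPM against 99.1 to 254 CPM (−1.91 ± 0.23, 9.48e-07). Of 25 cuticlin-like (cutl) genes tested 14 were lower and 0 higher at 0.05 in lin-4p::GFP high than in mir-243p::GFP high, and 10 and 0 against mir-240/786p::GFP low, where 13.6% and 15.9% of all genes were lower. Without sorts 1 and 2, 17 and 14 of 24 were lower, and without sorts 3 to 6, 8 and 3 of 26. Cutl-2 was 2.01, 3.46 and 6.67 CPM against 9.96 to 22.7 CPM (−2.02 ± 0.31, 2.37e-05), and cutl-16 was 20.4, 32.7 and 53.6 CPM against 77.1 to 176 CPM (−1.76 ± 0.26, 1.44e-05). Within mir-243p::GFP high libraries 3 and 4 were the highest for nhr-25, cutl-2 and cutl-16.

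The hedgehog-related gene wrt-10 was 13.8, 23.7 and 32.4 CPM in lin-4p::GFP high compared with 48.7 to 97.4 CPM in mir-243p::GFP high (−1.65 ± 0.23, adjusted p = 6.37e-06). Dpy-7, a furrow collagen gene, was 2.03, 2.48 and 5.47 CPM against 8.72 to 13 CPM (−1.95 ± 0.33, 7.13e-05). F53B3.5 and R07D5.2, with no role given here, differed by −1.77 ± 0.18 (7.67e-08; 24.3 to 36 against 72.7 to 129 CPM) and −1.97 ± 0.22 (3.59e-07; 3.63 to 5.75 against 13.5 to 29.4 CPM). None of these 4 genes overlapped between the groups. Without lin-4p::GFP high sorts 3 to 6 the noah, cutl, wrt-10 and dpy-7 calls were lost (adjusted p 0.000425 to 0.0142). The differences were then −1.86 and −1.68 for noah-1 and noah-2, −1.45 and −1.23 for cutl-2 and cutl-16, −1.21 for wrt-10 and −1.47 for dpy-7. Dpy-7 lost its call under 11 of the 17 single omissions (adjusted p up to 0.000574). The cutl-2, cutl-16 and wrt-10 calls were also lost without mir-243p::GFP high library 3 or 4 (adjusted p up to 0.000375), and that of cutl-2 without lin-4p::GFP high library 3. The epidermal markers, 4 tested of 6 and dpy-7 among them, summed to 70.8 to 791 CPM in lin-4p::GFP high, 76.1 to 215 in mir-243p::GFP high, 55.4 to 122 in mir-240/786p::GFP low and 188 to 225 in autofluorescence low, with none at 0 in a whole group. Between lin-4p::GFP high and mir-243p::GFP high, where 9.94% of all genes were higher and 13.6% lower, 1 of the 4 was higher and 1 lower at 0.05. The median difference of the 4 markers was 1.71. Their part in these differences was not tested. The mean of each of the 9 genes named was higher in every short-lived group than in any long-lived group, for example 20.9, 38.5, 48.7 and 40 CPM for nhr-25 in lin-4p::GFP low, mir-243p::GFP low, mir-240/786p::GFP high and autofluorescence high.

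Among genes linked to defence, the spp family differed more than the C-type lectins or the immune effector list did. Clec-60, a C-type lectin gene induced by bacterial infection, was 20.1, 38.9 and 100 CPM in lin-4p::GFP high compared with 6.26, 7.29, 4.2 and 3.77 CPM in mir-240/786p::GFP low (3.09 ± 0.47, adjusted p = 1.17e-05). Its 15, 7.93, 6.88 and 8.07 CPM in mir-243p::GFP high and 4.34, 6.08 and 12.3 CPM in autofluorescence low were below every lin-4p::GFP high library as well. The call was lost without mir-240/786p::GFP low library 3 or 4 (adjusted p up to 0.000158). Of 107 clec genes tested 15 were higher and 13 lower at 0.05 than in mir-243p::GFP high, and 15 and 7 than in mir-240/786p::GFP low, a share of higher genes near the 14.2% of all genes. The saposin-like spp genes encode membrane-acting peptides, some of them antibacterial, and of 19 tested 7 and 13 were higher and 0 lower at 0.05 than in mir-243p::GFP high and mir-240/786p::GFP low, where 9.94% and 14.2% of all genes were higher. Without sorts 1 and 2, 5 and 10 of 19 were higher, and without sorts 3 to 6, 13 and 15 of 20. Spp-3 was 115, 136 and 237 CPM against 46.9 to 61.3 CPM in mir-240/786p::GFP low (1.58 ± 0.25, 1.92e-05), and spp-5 was 612, 796 and 1290 CPM against 308 to 413 CPM (1.28 ± 0.20, 2.02e-05). Both calls were lost when the trend with length was removed, and without mir-240/786p::GFP low library 1, 2 or 4 (adjusted p up to 0.000262). The mean log2 CPM of the spp family was 4.734, 4.385, 4.065 and 3.787 in lin-4p::GFP high, autofluorescence low, mir-243p::GFP high and mir-240/786p::GFP low. It was lower in each short-lived partner, at 3.745, 3.220, 3.090 and 2.517 in that order of strains. Of 32 glutathione S-transferase genes 9 were higher and 0 lower in lin-4p::GFP high than in mir-240/786p::GFP low at 0.05. In the list of innate immune effectors, 20 tested of 22, 5 were higher and 1 lower than in mir-240/786p::GFP low, where 14.2% of all genes were higher and 15.9% lower, and 2 were higher than in autofluorescence low, where 0.47% of all genes were.

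The transthyretin-related (ttr) genes depended on the sorts. Of 47 tested 16 were higher and 0 lower at 0.05 in lin-4p::GFP high than in mir-243p::GFP high, where 9.94% of all genes were higher. This became 8 higher and 6 lower of 48 without sorts 1 and 2 and 37 and 0 of 48 without sorts 3 to 6. The glycine-rich secreted protein gene grsp-1 was 2.31, 4.85 and 6.62 CPM in lin-4p::GFP high compared with 3.81, 3.81 and 1.91 CPM in autofluorescence low, against 0.2, 0.567, 0.226 and 0.232 CPM in mir-240/786p::GFP low (3.81 ± 0.61 for lin-4p::GFP high, adjusted p = 2.20e-05), where it is close to the floor. That call was lost without mir-240/786p::GFP low library 1, 3 or 4 (adjusted p up to 0.000275).

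Most markers of body wall muscle were higher in lin-4p::GFP high than in both other reporter groups, but none was called by edgeR with all libraries in the fit. Of 6 tested, 4 were higher and 0 lower at 0.05 than in mir-243p::GFP high, and likewise 4 than in mir-240/786p::GFP low, where 9.94% and 14.2% of all genes were higher, and 0 differed from autofluorescence low. Without sorts 1 and 2, 5 and 6 were higher, and without sorts 3 to 6, 2 and 3. Their summed levels were 435 to 1024 CPM in lin-4p::GFP high, 251 to 358 in mir-243p::GFP high, 250 to 321 in mir-240/786p::GFP low and 316 to 501 in autofluorescence low. Their mean log2 CPM in these groups was 6.404, 5.209, 5.228 and 5.748. It was lower in each short-lived partner, at 5.231, 4.954, 4.091 and 3.840 in that order of strains. Unc-54, the major myosin heavy chain gene of body wall muscle, was 152, 229 and 479 CPM in lin-4p::GFP high compared with 94.9, 78.5, 61.2 and 78.6 CPM in mir-240/786p::GFP low (1.88 ± 0.43, adjusted p = 0.00123, not called), and was called without sorts 1 and 2 (2.12, 4.72e-05). DESeq2 called unc-54 as well (1.89, adjusted p = 2.24e-05). In whole-animal RNA a smaller share of muscle and less muscle RNA per cell cannot be told apart. Of 10 intestinal markers 1 and 2 were higher in those comparisons, among them act-5, the actin gene of the intestinal brush border, at 38, 65.9 and 126 CPM against 15.8, 30.6, 14.1 and 20.9 CPM (1.84 ± 0.41, 0.00102, not called). DESeq2 called act-5 in that comparison (1.86, adjusted p = 1.8e-05). Summed levels of the intestinal markers overlapped between all 4 groups, at 8074 to 45330 CPM in lin-4p::GFP high compared with 5947 to 25410 CPM in the others. The defining markers of muscle, intestine, neuron and spermatheca were above 0 in every group.

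Other tissues differed less. Of 8 neuronal markers 1 was lower at 0.05 in lin-4p::GFP high than in mir-240/786p::GFP low, where 15.9% of all genes were lower. This was ida-1, a dense-core vesicle gene, at 21.4, 26.6 and 51.6 CPM against 86.1, 61.8, 67.2 and 63.4 CPM (−1.20 ± 0.22, adjusted p = 0.00011, not called). DESeq2 called ida-1 (−1.19, adjusted p = 4.34e-06). Neuronal sums of 354 to 529 CPM covered all 4 groups. In mir-240/786p::GFP low, whose reporter is seen in the spermatheca, the 5 spermathecal markers summed to 477 to 552 CPM, inside the 283 to 1034 CPM of the other groups. The 6 vitellogenin genes, which encode the yolk proteins made in the intestine, had 0 calls and 0 passing at 0.05 in each of the 6 comparisons. Their mean log2 CPM was 12.2 ± 1.0 (SD, n = 6) in lin-4p::GFP high, 10.8 ± 1.1 (n = 4) in mir-243p::GFP high, 11.4 ± 0.39 (n = 4) in mir-240/786p::GFP low and 11.3 ± 0.37 (n = 3) in autofluorescence low. The libraries of all 4 groups overlapped. The 38 sperm genes, 4 of them tested, summed to 4.81 to 115 CPM in lin-4p::GFP high, 21.9 to 180 in mir-240/786p::GFP low and 7.96 to 176 in autofluorescence low. In mir-243p::GFP high, where 8 of the 38 were at 0 in every library, they summed to 5.92 to 6.44 CPM.

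Genes of the heterochronic pathway, in which lin-4 acts in larvae, were tested as a list of 11. In lin-4p::GFP high 4 were lower and 1 higher at 0.05 than in mir-240/786p::GFP low, and 2 were lower than in mir-243p::GFP high, where 15.9% and 13.6% of all genes were lower. Kin-20, a casein kinase gene of this pathway, was 38.6, 46.2 and 51.1 CPM in lin-4p::GFP high compared with 80.1, 73.5, 78.9 and 91.5 CPM in mir-240/786p::GFP low (−0.82 ± 0.10, adjusted p = 7.69e-07), the only one called, and the call was lost when the trend with length was removed. Hbl-1, a hunchback homologue, was 3.65, 4.78 and 6.35 CPM in lin-4p::GFP high compared with 14.5, 9.4 and 10.5 CPM in autofluorescence low (−1.21 ± 0.27, adjusted p = 0.0245, not called) with no overlap.

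Metabolic and stress lists differed in some members. Of 16 heat shock genes 0 were higher and 2 lower at 0.05 in lin-4p::GFP high than in mir-240/786p::GFP low. The lower count is near the 15.9% of all genes that were lower there. From mir-243p::GFP high or autofluorescence low 0 differed. Of 13 genes of the B12-dependent enzymes and methionine cycle 3 were lower than in mir-240/786p::GFP low, among them cbs-1, a cystathionine beta-synthase gene, at 22.9, 31.1 and 46 CPM against 49.6 to 60.1 CPM (−0.79 ± 0.15, adjusted p = 0.000189). Of 23 genes of fat synthesis and breakdown 6 were higher and 1 lower than in mir-243p::GFP high, where 9.94% of all genes were higher and 13.6% lower. Fat-6, a stearoyl-CoA desaturase gene, was 623, 807 and 1024 CPM in lin-4p::GFP high compared with 516, 427 and 546 CPM in autofluorescence low (0.70 ± 0.16, adjusted p = 0.0307). The carnitine palmitoyltransferase gene cpt-3 was 1.97, 1.69, 1.44 and 1.95 CPM in mir-243p::GFP high and 16.05, 21.6 and 9.7 CPM in autofluorescence low (−3.16 ± 0.50, adjusted p = 0.000171). Dod-19, a gene downstream of DAF-16, was 72, 126 and 238 CPM in lin-4p::GFP high compared with 22.1 to 48 CPM in mir-240/786p::GFP low (1.92 ± 0.37, 0.00022). None of these 4 genes was called by edgeR with all libraries in the fit, although the libraries of the groups named did not overlap. DESeq2 called cbs-1, cpt-3 and dod-19, and so did edgeR without lin-4p::GFP sorts 1 and 2 (adjusted p = 3.32e-06, 6.68e-06 and 4.78e-05). Cpt-3 was also called without sorts 3 to 6 (9.51e-06) and with the sort number as a block (5.77e-05).

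Finally the 17 predicted short-lived libraries of the same strains and sorts served to ask whether these differences were also seen between short-lived animals. Because both kinds of library came from the same sorts, strain and campaign cannot be separated in this way. Genes called between 2 long-lived groups differed in the same direction between the short-lived partners in 371 of 379 cases for lin-4p::GFP against mir-243p::GFP, 673 of 687 for lin-4p::GFP against mir-240/786p::GFP, and 66 of 69 for mir-240/786p::GFP against autofluorescence. The counts were 8 of 8, 6 of 6 and 35 of 35 in the other 3 comparisons. Over all genes the shares with the same direction were 70.3%, 76.3% and 63.9% in the first 3 comparisons and 67.9%, 58.9% and 43.3% in the others. Of the called genes 37, 316, 16, 7, 3 and 7 were also called between the short-lived partners, in the order of the 6 comparisons just given. The difference between biomarkers depended on predicted lifespan in 0 genes at the 0.0001 threshold by edgeR (0%), with 248 (1.74%) at an adjusted p under 0.05, 2573 at an unadjusted p under 0.05 and 14 called by DESeq2. Of the genes called between long-lived groups 59, 97, 13, 0, 2 and 1 passed this test at 0.05, in that same order. Their median ratio of the short-lived to the long-lived difference was 0.47, 0.80, 0.73, 1.14, 0.63 and 0.63. These genes were picked on the long-lived difference, which by itself favours a smaller short-lived difference. High and low libraries of 1 sort are paired by design. With the sort as a block within each biomarker 0 genes were called as well, and 2284 passed at 0.05.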

How the data were processed

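RNA from pooled sorted animals was sequenced after oligo(dT) selection, and the authors deposited raw counts per gene from STAR 2.7.3a and featureCounts (per the submitters' processing notes) on WBcel235. Strand use in counting is not given in the sources used here. The table held 20223 features in 34 columns, all mapped to samples (0 columns not used), of which 20052 matched Ensembl annotation, used for positions and lengths. Library totals were 15823719 to 26144058 counts, and floors of 3 counts cover counting error only. The 14245 genes reaching 5 counts in 26 or more of the 34 libraries were tested. Group means of all 8 groups were fitted together with edgeR 4.0.16 (TMM, quasi-likelihood F-test, R 4.3.3), and the 6 comparisons were contrasts of that fit each adjusted over all genes by Benjamini and Hochberg's method. Calls required an adjusted p under 0.0001, and SE was the absolute log2 fold change divided by the square root of F. Log2 CPM used a prior count of 2. The libraries of no 2 replicates agreed within sampling noise. The labels give no sequencing batch, although the study's methods name one, so no within-batch value could be computed. The steps were tested on simulated data.

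The genes named were up to 5 in each direction set apart in a group (called in all 3 contrasts, libraries not overlapping, at least 1 CPM), up to 4 of each gene list by the test among the 4 groups, and gfp, unc-119, rol-6, spe-9 and the microRNA neighbours. A rule added after the values were seen took up to 5 genes in each direction for each comparison and up to 4 of each family, and pept-2, a sixth gene set apart, was also named after its values were seen. Further rules added then took the genes with the smallest p of the interaction with predicted lifespan. They also took the genes called in all 4 comparisons across the split. Such genes were thus picked on the same tests that are reported for them. The members and lists were chosen with earlier results of these data known. The alternatives were a fit of the 17 libraries only, DESeq2 1.42.0, RLE factors, 2 other filters, the sort number as a block, lin-4p::GFP sorts 1 and 2 or 3 to 6 left out, each library left out, and, chosen after seeing the data, removal of each library's trend with length (known for 14194 genes).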

Additional observations from a re-analysis of the deposited data

Results flagged for a closer look

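In groups of 4 to 6 libraries, 1 library stood apart from the rest of its group in 11 of 324 group values, while chance alone gives about 1 in 20. In lin-4p::GFP high, library 1 was high for dpy-7 (5.47 CPM, others 2.03 to 2.55), fbxb-107 (7.22 CPM, others 3.48 to 4.53) and nspc-17 (18 CPM, others 5.45 to 6.58). Library 3 was low for C08F11.7 (8.85 CPM, others 10.9 to 11.8), and library 2 was low for the mean of the rpl genes (9.11 log2 CPM, others 9.32 to 9.43). In mir-240/786p::GFP low, library 4 was low for nspc-9 (12.7 CPM, others 14.8 to 15.1) and high for aex-5 (10 CPM, others 6.42 to 6.91). Library 2 was high for grsp-1 (0.567 CPM, others 0.2 to 0.232), and library 3 for the mean of the ceh genes (2.92 log2 CPM, others 2.80 to 2.81). In mir-243p::GFP high, library 4 was low for the mean of the intestinal markers (5.66 log2 CPM, others 6.47 to 6.63) and of the sperm genes (−0.528 log2 CPM, others −0.186 to −0.138).

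In the edgeR interaction test 23 of the 82 named genes checked had an adjusted p under 0.05, although none passed 0.0001. For these the difference among biomarkers depended on predicted lifespan. Over all genes tested the share at 0.05 was 1.74%. The rules for naming genes included a small p of this same test, so the count cannot be read as a result about the named genes. The adjusted p values were 0.013 for B0024.4 and K03A11.1, and 0.0155 for cpt-3 and C30G12.2. They were 0.0211 for fbxb-26, sdz-9, vet-6, vet-1, ceh-86 and Y37H2A.14, 0.0213 for nhr-25, 0.0247 for fbxc-18, 0.025 for F53B3.5, 0.0252 for R07D5.2 and 0.0256 for nhr-2. They were 0.0268 for ceh-32, 0.0322 for vet-2, 0.0329 for fbxb-107, 0.0356 for ZK856.7 and sdz-30, 0.0361 for fbxb-41, 0.0374 for skr-7 and 0.0438 for fat-6.

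The gfp transcript was counted in autofluorescence low, a strain with no reporter, at 16, 10 and 8 counts, against at most 1 count in the autofluorescence high libraries of the same strain.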

How the results depend on the processing

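RLE factors, both other filters and the sort number as a block kept every count of calls within 1.5 times its main value. Same-numbered sorts of different biomarkers did not deviate together (mean r = 0.018 over 21 pairs, from −0.19 to 0.19), so the numbers do not pair the biomarkers, and the replicate block gave 521 genes among the 4 groups and 286, 541, 8, 6, 32 and 48 in the comparisons, in the order lin-4p::GFP high against mir-243p::GFP high, mir-240/786p::GFP low and autofluorescence low, mir-243p::GFP high against mir-240/786p::GFP low and autofluorescence low, and mir-240/786p::GFP low against autofluorescence low. Genes set apart were then 6, 3, 0 and 0, and the interaction with predicted lifespan 0.

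With only the 17 libraries in the fit, 224 genes differed among the groups, and the comparisons other than lin-4p::GFP high against autofluorescence low had 120, 274, 2, 20 and 24. DESeq2 called 1790 among the groups, 961, 1472, 30, 41, 151 and 299 in the comparisons, 15, 6, 7 and 1 set apart and 14 for the interaction. Leaving out lin-4p::GFP sorts 1 and 2 gave 1290 among the groups, 927, 1070 and 14 for lin-4p::GFP high, 79 and 155 for mir-243p::GFP high and mir-240/786p::GFP low against autofluorescence low and 12 set apart in lin-4p::GFP high. Leaving out sorts 3 to 6 gave 1505, then 1116, 1692 and 306, then 86 and 155, with 259 set apart in lin-4p::GFP high and 1 in mir-240/786p::GFP low. Removing the trend with length gave 247 for lin-4p::GFP high against mir-243p::GFP high, 12 and 44 against autofluorescence low for mir-243p::GFP high and mir-240/786p::GFP low, and 1 set apart in mir-240/786p::GFP low. The cause of these changes was not tested.

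Leaving out 1 library at a time gave 459 to 676 genes among the groups, 120 to 350, 325 to 679, 5 to 9, 4 to 7, 12 to 39 and 7 to 69 in the comparisons, 5 to 8, 2 to 3, 0 to 0 and 0 to 0 set apart and 0 to 0 for the interaction. Of 96 values of named genes in a comparison, 79 of them called, none changed direction under any alternative. Calls were lost for 19 with only the 17 libraries, 15 without sorts 3 to 6, 15 without the trend with length, 4 with the block and 1 without sorts 1 and 2, among the 95 or 96 that could be fitted. The 4 were C55C3.3, dpy-7, fbxb-107 and wrt-10 (adjusted p 0.000105 to 0.00017). Those lost with only the 17 libraries included clec-60, fbxb-107, sdz-30, skr-7, tbx-11 and vet-2 between lin-4p::GFP high and mir-240/786p::GFP low. They also included cutl-2, cutl-16, dpy-7 and wrt-10 between lin-4p::GFP high and mir-243p::GFP high. Against autofluorescence low, nduv-3 and WBGene00010966 were lost for mir-243p::GFP high, and atrn-1 and ceh-86 for mir-240/786p::GFP low. Calls were gained for 14 with DESeq2, 8 without sorts 1 and 2 and 4 without sorts 3 to 6. Another 1 each was gained with only the 17 libraries, with the block and without the trend with length. With 3 autofluorescence low libraries, a difference in that group that was not called cannot be read as absent.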

Other observations

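Genes for small secreted peptides formed a further group. Of 18 nspc genes, which encode small nematode-specific peptides, 14 were higher and 0 lower at an adjusted p under 0.05 in lin-4p::GFP high than in mir-240/786p::GFP low, where 14.2% of all genes were higher, and 13 were lower and 0 higher in mir-240/786p::GFP low than in autofluorescence low, where 3.32% were lower. None was called at 0.0001 by edgeR with all libraries in the fit, while DESeq2 called nspc-9 in the first comparison and nspc-17 in the second. EdgeR called nspc-9 without lin-4p::GFP sorts 3 to 6 (2.92, adjusted p = 1.09e-06) and nspc-17 without sorts 1 and 2 (−1.99, 2.07e-05). Nspc-9 was 18.6, 42.9 and 112 CPM (lowest, median and highest) in lin-4p::GFP high against 15.1, 15, 14.8 and 12.7 CPM in mir-240/786p::GFP low, higher by 2.00 ± 0.41 (adjusted p = 0.000351) and with no overlap. It was 39.5, 32.4, 32.5 and 50.8 CPM in mir-243p::GFP high and 58.2, 62.9 and 65.8 CPM in autofluorescence low. The mean log2 CPM of the 18 nspc genes was 5.198, 5.485, 5.131 and 4.053 in lin-4p::GFP high, autofluorescence low, mir-243p::GFP high and mir-240/786p::GFP low. It was lower in each short-lived partner, at 4.008, 3.837, 3.653 and 1.683 in that order of strains. Members of this family are similar in sequence, so that counts may have been divided between them.

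Neuropeptide and insulin-like genes differed in some members. With adjusted p under 0.05, 14 of 64 nlp genes were higher in lin-4p::GFP high than in mir-240/786p::GFP low and 4 lower, of 30 flp genes 8 and 1, and of 26 insulin-like genes 8 and 1, where 14.2% of all genes were higher and 15.9% lower. Nlp-33, an epidermal antimicrobial peptide gene, was 5.21, 2.48, 2.79 and 4.9 CPM in mir-243p::GFP high and 21.9, 16.8 and 12.8 CPM in autofluorescence low (−2.15 ± 0.43, adjusted p = 0.00254). The insulin-like gene ins-8 was 1.11, 2.1 and 4.53 CPM in lin-4p::GFP high compared with 5.34, 7.02 and 16.4 CPM in autofluorescence low (−2.03 ± 0.35, adjusted p = 0.00272). Flp-10 was 19.5, 23.7, 25.2 and 30.5 CPM in mir-243p::GFP high and 13.1, 14 and 9.16 CPM in autofluorescence low (1.03 ± 0.19, adjusted p = 0.0012). In none of these 3 did the libraries of the groups named overlap, and they were called by DESeq2 but not by edgeR with all libraries in the fit. Without lin-4p::GFP sorts 3 to 6 edgeR called nlp-33 (−2.12, adjusted p = 9.42e-05).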
